A study of Zea mays with 12 samples.

Results

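Endosperm of reciprocal maize crosses was compared at 7, 10 and 15 days after pollination (DAP). The comparison takes 6 of the 12 libraries of the series: endosperm of BxM (genotype B73XMo17) at each of these ages, against endosperm of MxB (genotype Mo17XB73) at the same ages. With the mother written first, which is the usual order, BxM has a B73 mother and an Mo17 father and MxB the reverse, and both crosses carry the same pair of inbred genomes. The remaining 6 libraries are unpollinated kernels (0 DAP) and kernels of 3 and 5 DAP from the same crosses. They serve here as further measurements of the models described in endosperm. The title of the series names imprinted genes and maternal control of nutrient supply as its subject.

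Cereal endosperm arises when a sperm fuses with the central cell, so each nucleus carries 2 maternal genome copies and 1 paternal copy. A gene that only one parental line expresses is therefore carried in unequal dose by the reciprocal hybrids, although their pair of genomes is the same. A kernel before pollination is maternal tissue, and the young kernel is still mostly maternal tissue around a small endosperm. Imprinted genes are expressed mainly from the copy of one parent, whichever line that parent comes from.

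Each cross and age has 1 library, so age enters the fit as a term and p-values measure how unevenly the cross difference repeats over the 3 ages, not the spread between plants. Total counts were 59378582 to 70930121 per library up to 10 DAP, and 35401314 (BxM) and 39864984 (MxB) at 15 DAP. Counts sum both alleles, so parental expression cannot be read from them. The count headers name B73, and whether reads of Mo17 alleles map less well was not tested. In bulk tissue, fewer cells of a type and less RNA per cell cannot be told apart. The rule set aside 20 models with 0 in both 15 DAP libraries whose 10 DAP mean reached 5000 counts, among them gz16 and gz27 (gamma-zeins), several alpha-zeins and sh1 (a sucrose synthase). Nearest to that threshold, the alpha-zein gene z1C1_4 was inside it with a mean of 13465 counts at 10 DAP, and GRMZM2G141473 was outside it with 4664.5.

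Most gene models differed little between the crosses. Of 22955 models with a mean raw count of at least 100 over the 6 libraries, 90.7% lay within a log2 difference of 1 either way at 7 DAP, 87.3% at 10 DAP and 78.8% at 15 DAP. The median log2 of BxM over MxB was -0.04, 0.02 and -0.04 at the 3 ages. A log2 of 1 is the bound that copy number sets when each copy keeps the level of its line: a gene expressed from the B73 genome only would reach 1, a gene expressed from the Mo17 genome only would reach -1, and any mixture would lie between.

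Endosperm differences went in the same order as those between the unpollinated kernels of the mother lines. For the largest differences at 0 DAP, their medians lay near the value that 2 maternal copies to 1 paternal copy gives. For 21980 models counted at both stages, the 0 DAP log2 of BxM over MxB was turned into a copy number value by giving each cross 2 copies at its mother's level and 1 at its father's. Among the 258 models above a 0 DAP log2 of 6, the median endosperm log2 was 1.10 (quartiles 0.84 and 1.38) beside a copy number value of 0.996, and 97.3% lay on the BxM side. Among the 233 models below -6, the median was -0.98 (quartiles -1.40 and -0.63) beside -0.996, and 95.3% lay on the MxB side. Large differences at 0 DAP thus stood beside endosperm medians close to the copy number bound. Single models spread around it: 60.1% of the 258 and 48.9% of the 233 were beyond a log2 of 1 in size. Whether copy number sets these values was not tested.

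Smaller line differences at 0 DAP stood beside smaller ones in endosperm. The 401 models between 2 and 4 at 0 DAP had a median endosperm log2 of 0.58 (copy number value 0.70), and the 1244 models between 1 and 2 had 0.24 (0.40). On the other side, 279 models between -4 and -2 had a median of -0.50 (-0.70), and 917 models between -2 and -1 had -0.25 (-0.41). The 13662 models within 0.5 of zero had -0.03. The medians of all bins kept one order, and in the 4 bins from 1 to 4 either way they were nearer to zero than the copy number value. The same held for the 2342 models between 0.5 and 1, at 0.08 (0.23), and the 2391 between -1 and -0.5, at -0.14 (-0.22).

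**Figure D1:**
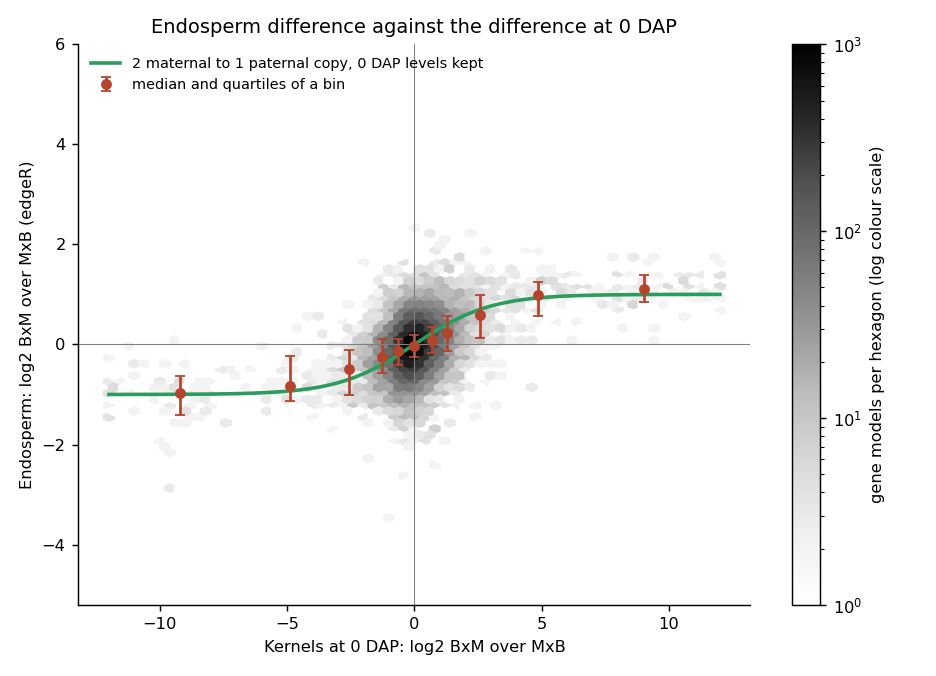
Endosperm log2 of BxM over MxB (vertical axis, edgeR fit over 3 ages) against the same log2 in kernels at 0 DAP (horizontal axis) for 21980 models, as hexagons shaded by number of models (values beyond the plotted limits are drawn at them). Points with bars are medians and quartiles of bins, and the curve is the value from 2 maternal copies to 1 paternal copy. The bin medians level off at 1.10 and -0.98.

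The clearest cases are models counted in the unpollinated kernels of a single line. There were 561 models with at least 100 counts in the B73 kernels and 0 in the Mo17 kernels, and 119 of them reached a mean count of 100 in endosperm. Their median log2 was 1.01 at 7 DAP, 1.32 at 10 DAP and 0.94 at 15 DAP, and 1.11 in the fit over the ages (quartiles 0.84 and 1.41). Of the 119, 52 lay within 0.25 of a log2 of 1, 82 lay within 0.5, and 2 lay on the MxB side. The 806 models with at least 100 counts in Mo17 kernels and 0 in B73 kernels left 138 in endosperm, with medians of -0.95, -1.03 and -1.15 by age and -0.999 in the fit (quartiles -1.48 and -0.64). Of these 138, 47 lay within 0.25 of -1, 73 lay within 0.5, and 7 lay on the BxM side. The interquartile range was 0.619, 0.996 and 1.32 at the 3 ages in the B73 set and 0.711, 1.11 and 1.61 in the Mo17 set, and the part of the lower total counts at 15 DAP in this was not tested.

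**Figure D2:**
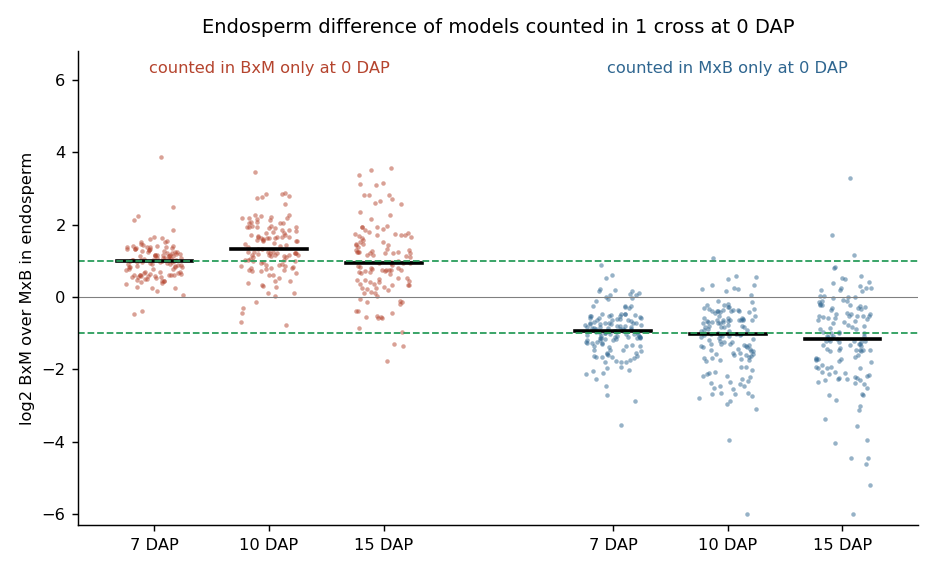
Log2 of BxM over MxB in endosperm at 7, 10 and 15 DAP (vertical axis, values beyond 6 drawn at 6) for the 119 models counted in BxM only at 0 DAP (left) and the 138 counted in MxB only (right). Points are models, black bars are medians and dashed lines mark log2 values of 1 and -1. The medians are 1.01, 1.32 and 0.94 on the left and -0.95, -1.03 and -1.15 on the right.

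Whether the cross difference itself differed between endosperm and kernels was tested with a tissue by cross term in the 10 libraries from 3 to 15 DAP (edgeR quasi-likelihood test, 3 residual degrees of freedom). Of 44685 models, 795 passed (1.78%), and 5108 had an unadjusted p under 0.05. In 790 of the 795 the kernel difference was the larger in size, and in 690 of these the endosperm difference lay on the same side. In 419 the endosperm difference was within a log2 of 1. The same shares over all 44685 models were not counted. Tissue and age cannot be told apart in this test, since kernels are the younger samples. The count of 795 depends on the ages included, since leaving out either library of an age takes that age out of the cross contrast. The count was 445 or 422 when the 3 DAP kernel library of BxM or of MxB was left out. For the 5 DAP kernel library it was 1465 or 1508. It was 423 when the 7 DAP endosperm library of BxM was left out, and 265 or 366 for the 15 DAP endosperm library of BxM or of MxB.

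The sizes of these differences were far apart in the 2 tissues. The models were chosen by the tissue by cross term on the same libraries, so this gap was fixed in advance and is not read as a result. The 426 models with the larger difference in kernels and on the BxM side there had a median log2 of 1.05 in endosperm and 7.48 in kernels. The 364 on the MxB side had -0.74 in endosperm and -7.43 in kernels. The 0 DAP libraries, which the test did not use, lay on the same side as the later kernels for 789 of the 795. These models were chosen with large kernel differences between the same mother lines, and the share over all models was not counted. Nothing is read from this number.

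The 5 models with the smallest adjusted p, named after their values were seen, are described here by library. GRMZM2G093942 had 1975 counts in BxM kernels at 3 DAP and 5872 at 5 DAP, against 6 and 7 in MxB kernels. Its endosperm held 636, 487 and 478 counts in BxM at 7, 10 and 15 DAP, against 491, 319 and 347 in MxB. The kernel groups were thus far apart, while the endosperm groups came close at each age (log2 0.78 in endosperm and 9.16 in kernels, difference -8.38, SE 0.55, edgeR adjusted p = 0.00371). GRMZM2G001905 showed the mirror image, with 13 and 24 counts in BxM kernels at 3 and 5 DAP, against 4815 and 3859 in MxB kernels. In endosperm it had 1081, 1000 and 677 counts in BxM, against 1813, 2641 and 1973 in MxB. At 0 DAP it had 8 counts in BxM and 2905 in MxB, and its endosperm log2 in the joint fit was -0.94, near the copy number bound (difference 6.82, SE 0.44, adjusted p = 0.00371).

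GRMZM2G413835 had 3143 and 4165 counts in BxM kernels at 3 and 5 DAP, against 2 and 7 in MxB kernels, and 821, 195 and 72 in BxM endosperm, against 295, 116 and 39 in MxB endosperm (difference -8.45, SE 0.67, adjusted p = 0.0051). GRMZM2G042133 lay on the MxB side in both tissues, with a log2 of -1.41 in endosperm and -6.21 in kernels (difference 4.80, SE 0.37, adjusted p = 0.0051). GRMZM2G023520 had 3232, 6850 and 7459 counts in BxM endosperm, against 2853, 6416 and 7010 in MxB endosperm, although its kernels had 144 and 195 counts in BxM against 4609 and 6060 in MxB (difference 5.26, SE 0.40, adjusted p = 0.0051). In that model the MxB excess of the kernels was not seen in endosperm, where BxM had a log2 of 0.42.

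**Figure D3:**
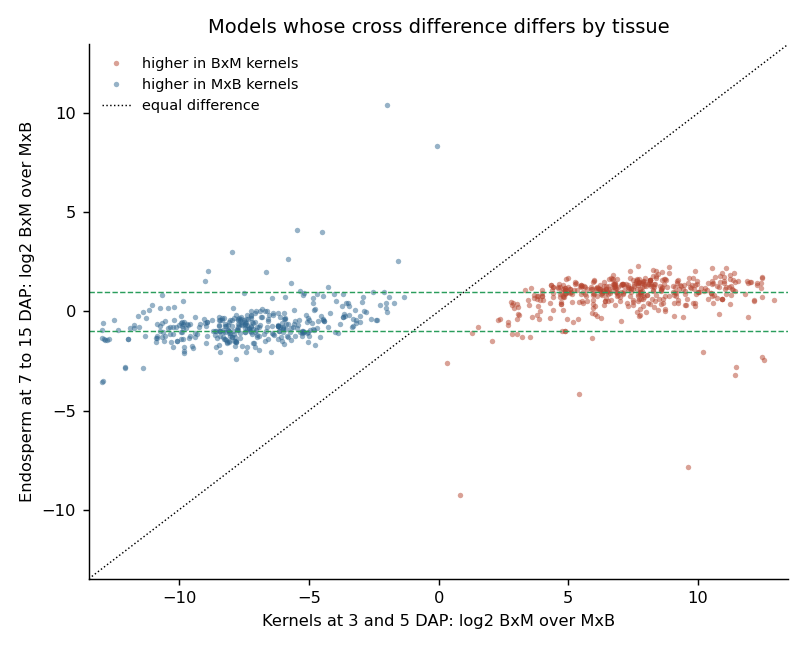
Log2 of BxM over MxB in endosperm (vertical axis) against the same log2 in kernels of 3 and 5 DAP (horizontal axis) for the 795 models whose cross difference differed by tissue. Each point is a model, dashed lines mark an endosperm log2 of 1 and -1, and the dotted line marks equal differences. Most points lie far out along the horizontal axis and close to the dashed lines, with medians of 1.05 and -0.74 in endosperm.

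In 5 of the 795 models the endosperm difference was the larger in size. These are GRMZM2G009462, AC183514.3_FG005 and GRMZM2G091020, higher in BxM endosperm, and GRMZM2G167812 and GRMZM2G408462, higher in MxB endosperm. GRMZM2G091020 had 172, 45 and 160 counts in BxM endosperm and 0 in each MxB endosperm library, while kernels at 3 and 5 DAP had 1 and 10 counts in BxM against 16 and 21 in MxB (adjusted p = 0.026). GRMZM2G167812 had 4, 12 and 3 counts in BxM endosperm, against 23, 99 and 28 in MxB endosperm, beside 3146 and 2095 in BxM kernels against 2812 and 1843 in MxB kernels (adjusted p = 0.0287). For GRMZM2G408462 the endosperm difference rests on MxB at 10 DAP, with 241 counts, since the other endosperm libraries had 0 or 1.

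Direction at the 3 ages was counted for the 22955 models with a mean count of at least 100, with no test. BxM was the higher at all 3 ages in 3746 models (16.3%) and MxB in 4520 (19.7%), and 14689 models (64%) were on different sides or level at some age. Most one-sided models stayed inside the copy number bound: 2323 on the BxM side and 2914 on the MxB side were within a log2 of 1 at each age. The difference was beyond 1 at each age in 189 models on the BxM side (0.823% of the 22955) and 156 on the MxB side (0.68%), and beyond 2 at each age in 28 and 18. It lay within 0.25 of the bound at each age in 34 and 27. The balance of sides depends on scaling: library totals alone shift the median of all models by -0.11 and give 2627 on the BxM side and 5627 on the MxB side, and median-ratio (RLE) factors give 4099 and 4198.

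The kernels played no part in choosing these classes, and for models beyond the bound most lay on the same side. Of the 189 models beyond the bound on the BxM side, 163 were detected with at least 20 counts at 0 DAP and 143 of these (87.7%) were higher in BxM kernels, where 48.8% of all models were. At 3 DAP the share was 85.8% beside 46.8%, and at 5 DAP 89.9% beside 49.4%. Of the 156 models on the MxB side, 130 of 145 detected at 0 DAP (89.7%) were higher in MxB kernels, where 51.2% of all models were, and 96.1% were at 5 DAP, beside 50.6%. Of the models beyond 2 at each age on the BxM side, 10 of 16 detected at 0 DAP (62.5%) and 8 of 14 at 3 DAP (57.1%) were higher in BxM kernels. At 5 DAP it was 16 of 19 (84.2%). On the MxB side, 12 of 13, 13 of 13 and 18 of 18 detected models beyond 2 were higher in MxB kernels at 0, 3 and 5 DAP. Of the models within a log2 of 1 at each age, 61% of the BxM class and 65.6% of the MxB class shared the kernel side at 0 DAP.

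Models close to the bound at each age, named here after their values were seen, include several abundant ones. GRMZM2G133721 had 216, 149 and 230 CPM in BxM endosperm at 7, 10 and 15 DAP, against 498, 257 and 506 CPM in MxB endosperm (log2 -1.04, SE 0.20, edgeR adjusted p = 0.136), and 1 count in BxM kernels against 5447 in MxB kernels at 0 DAP. Recq4, of a family of DNA helicases, had 40.9, 18.4 and 16.4 CPM in BxM, against 21.1, 9.48 and 7.97 CPM in MxB (log2 0.98, SE 0.19, adjusted p = 0.143), and 9427 counts in BxM kernels against 2133 in MxB kernels at 0 DAP. The same cross was the lower one at each age in either model. GRMZM2G132929 had close counts in kernels of the crosses at 0 DAP, with 2442 in BxM and 2413 in MxB, and 2443 in BxM and 3364 in MxB at 5 DAP. In endosperm it had 52.3, 91.3 and 52.1 CPM in BxM, against 103, 189 and 95.3 CPM in MxB (log2 -0.98, -1.05 and -0.87 by age, fit -0.97, SE 0.18, adjusted p = 0.125). GRMZM2G018820 had 83.9, 249 and 164 CPM in BxM endosperm, against 40.6, 133 and 88 CPM in MxB endosperm (log2 0.95, SE 0.18, adjusted p = 0.133), while at 0 DAP it had 9759 counts in BxM kernels and 12432 in MxB kernels. None of these 4 passed the edgeR threshold, while all 4 had an unadjusted p under 0.05, beside 10.8% of all models tested, and DESeq2 called all 4, beside 2.77%. They were chosen on these libraries, so nothing is read from these counts.

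A gene symbol could be given to 10 of the 345 models beyond the bound at each age, and none of the 10 passed the edgeR threshold. All 10 had an unadjusted p under 0.05 and DESeq2 called 7, and since the same libraries chose them, nothing is read from this. On the BxM side were lox12, a lipoxygenase, and aba1, GLK5 and ABP. On the MxB side were opr2, of the 12-oxo-phytodienoate reductase family, CM2, a chorismate mutase at the entry to phenylalanine and tyrosine synthesis, and MSRA2, Cel12Chr1, CL1911_3 and MYBR115. lox12 had 758, 417 and 410 counts in BxM, against 83, 156 and 271 in MxB (log2 1.97, SE 0.42, adjusted p = 0.165). opr2 had 69, 206 and 225 counts in BxM, against 313, 680 and 719 in MxB (log2 -1.58, SE 0.29, adjusted p = 0.125), although its kernels at 0 DAP had 605 counts in BxM and 254 in MxB. CM2 had 330, 391 and 104 counts in BxM, against 711, 1209 and 341 in MxB (log2 -1.22, SE 0.24, adjusted p = 0.143), a difference that was even over the ages. MYBR115, of the MYB-related transcription factor family, had 204, 85 and 3 counts in BxM, against 511, 357 and 93 in MxB (log2 -2.16, SE 0.57, adjusted p = 0.249), and in kernels at 0 DAP it had 0 in BxM and 405 in MxB.

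The test of the cross over the 6 endosperm libraries called few models. With edgeR's quasi-likelihood test and Benjamini-Hochberg adjustment at 0.05, 15 of 38893 models were higher in BxM (0.0386%) and 4 were higher in MxB (0.0103%), and 4211 had an unadjusted p under 0.05. A difference beyond a log2 of 1 in either direction was tested with glmTreat, which called 2 models (0.00514%), both higher in BxM, against 1213 at an unadjusted p under 0.05. These counts rest on settings and on the ages included. With age as a term and 1 library per cross and age, leaving out either library takes its age out of the cross contrast. DESeq2 called 673 higher in BxM and 406 higher in MxB, median-ratio factors in edgeR gave 2 and 0, and a filter by cross gave 2 and 0. Leaving out the 7 DAP library of BxM gave 814 calls higher in BxM and 528 higher in MxB, and leaving out that of MxB gave 820 and 500. Leaving out the 10 DAP library of BxM gave 163 and 97, and that of MxB 167 and 84, while leaving out the 15 DAP library of BxM gave 9 and 2. The glmTreat count was 135 or 160 when the 7 DAP library of BxM or of MxB was left out, 76 or 92 for the 10 DAP library, and 3 or 4 for the 15 DAP library.

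The 2 models called beyond the copy number bound were nearly absent from MxB endosperm. GRMZM5G871471 had 2001, 864 and 1003 counts in BxM at 7, 10 and 15 DAP, against 0, 1 and 0 in MxB. Its level was 26.9 ± 15.1 CPM in BxM and 0.00417 ± 0.00723 CPM in MxB (SD over the ages, n = 3 each; edgeR adjusted p = 0.000694, glmTreat adjusted p = 0.000789). A separate ratio, of counts pooled over the ages and scaled to library size, was 4431 with a 95% counting interval of 795 to 175076. That ratio rests on 3868 pooled counts in BxM against 1 in MxB. GRMZM2G170309 had 2117, 1183 and 426 counts in BxM, against 0, 2 and 0 in MxB (edgeR adjusted p = 0.00113, glmTreat adjusted p = 0.0013). Its ratio of pooled counts was 2134 with an interval of 590 to 17631. Neither had more than 4 counts in any kernel library of 0 or 3 DAP, and at 5 DAP they had 64 and 62 counts in BxM kernels and 0 in MxB kernels. The intervals cover counting error only. In 16 of the 18 other settings each of these 2 models passed the test of any cross difference. Whether they passed the test beyond a log2 of 1 in those settings was not counted per model.

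Other models on the BxM side were also at or near 0 in MxB. GRMZM2G446773 had 120, 187 and 472 counts in BxM and 0 in each MxB library, at least 147-fold higher against a floor of 3 counts per library (adjusted p = 0.0414). GRMZM2G371935 had 153, 59 and 401 counts in BxM and 0 in each MxB library, at least 119-fold higher (adjusted p = 0.045). GRMZM2G549443 had 323, 603 and 238 counts in BxM, against 9, 8 and 0 in MxB (adjusted p = 0.045), and GRMZM2G033935 had 558, 375 and 312, against 14, 10 and 0 (adjusted p = 0.0496). GRMZM2G027864 had 388, 386 and 103 counts in BxM, against 10, 15 and 0 in MxB (adjusted p = 0.0496). All 5 were called on these same libraries, so the gap between their groups is not read as a further result. In all 5 the kernels before 5 DAP held at most 24 counts per library.

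The next 6 BxM calls had counts in each library of both crosses. GRMZM2G486496 had 1000, 822 and 464 counts in BxM, against 158, 95 and 32 in MxB (log2 3.43, SE 0.37, adjusted p = 0.045). GRMZM2G449226 had 1786, 723 and 215 in BxM, against 321, 213 and 67 in MxB (2.24, SE 0.25, adjusted p = 0.0496), and GRMZM2G355274 had 267, 165 and 188, against 16, 14 and 8 (4.28, SE 0.47, adjusted p = 0.045). At every age the BxM library was the higher one. GRMZM2G042525 had 1820, 1402 and 923 counts in BxM, against 412, 495 and 324 in MxB (1.98, SE 0.21, adjusted p = 0.045), beside 741 counts in BxM kernels and 0 in MxB kernels at 0 DAP. GRMZM2G126041 and GRMZM2G009462 had the opposite sides in kernels and endosperm. GRMZM2G126041 had 165, 190 and 450 counts in BxM endosperm, against 8, 22 and 34 in MxB endosperm, and 2 and 6 counts in BxM kernels at 3 and 5 DAP, against 105 and 88 in MxB kernels (tissue difference 8.50, SE 0.86, adjusted p = 0.00674). GRMZM2G009462 had 1289, 521 and 327 counts in BxM endosperm, against 232, 102 and 91 in MxB endosperm, and 19 and 56 in BxM kernels, against 102 and 112 in MxB kernels (tissue difference 4.07, SE 0.61, adjusted p = 0.018). The other 2 BxM calls had mean counts of 78.3 and 94.2. GRMZM2G446775 had 70, 136 and 264 counts in BxM and 0 in each MxB library, and AC183514.3_FG005 had 310, 169 and 84 in BxM, against 2, 0 and 0 in MxB. Of the 13 BxM calls with a mean count of 100 or more, 6 were detected in kernels at 0 DAP and 2 of these (33.3%) were higher in BxM kernels. At 3 DAP it was 1 of 4 (25%), and at 5 DAP 6 of 9 (66.7%). All 4 MxB calls were detected in kernels at 5 DAP and were higher in MxB there.

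Among the 4 models higher in MxB, GRMZM2G136868 stood farthest apart. It had 6, 1 and 18 counts in BxM, against 753, 911 and 914 in MxB, a log2 of -6.57 (SE 0.60, adjusted p = 0.0414). GRMZM2G052337 had 111, 20 and 16 counts in BxM, against 779, 417 and 219 in MxB (-3.36, SE 0.39, adjusted p = 0.0496), and GRMZM2G403021 had 174, 37 and 46, against 1170, 632 and 435 (-3.08, SE 0.32, adjusted p = 0.045). These 3 had at most 3 counts in any kernel library of 0 or 3 DAP. GRMZM2G066636, in the reference table as LOC100284091, had 7, 789 and 0 counts in BxM, against 42, 6981 and 2 in MxB (-2.74, SE 0.30, adjusted p = 0.0486), and MxB was also the higher in kernels at 0 DAP, with 65 counts in BxM against 1526 in MxB. Over all ages the crosses did not overlap in the first 3 of these models, and for GRMZM2G066636 MxB was the higher at each age. The models were called on these libraries and the share over all models was not counted, so nothing is read from this. The other called models have no symbol in the reference table, so no function is given for them.

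**Figure D4:**
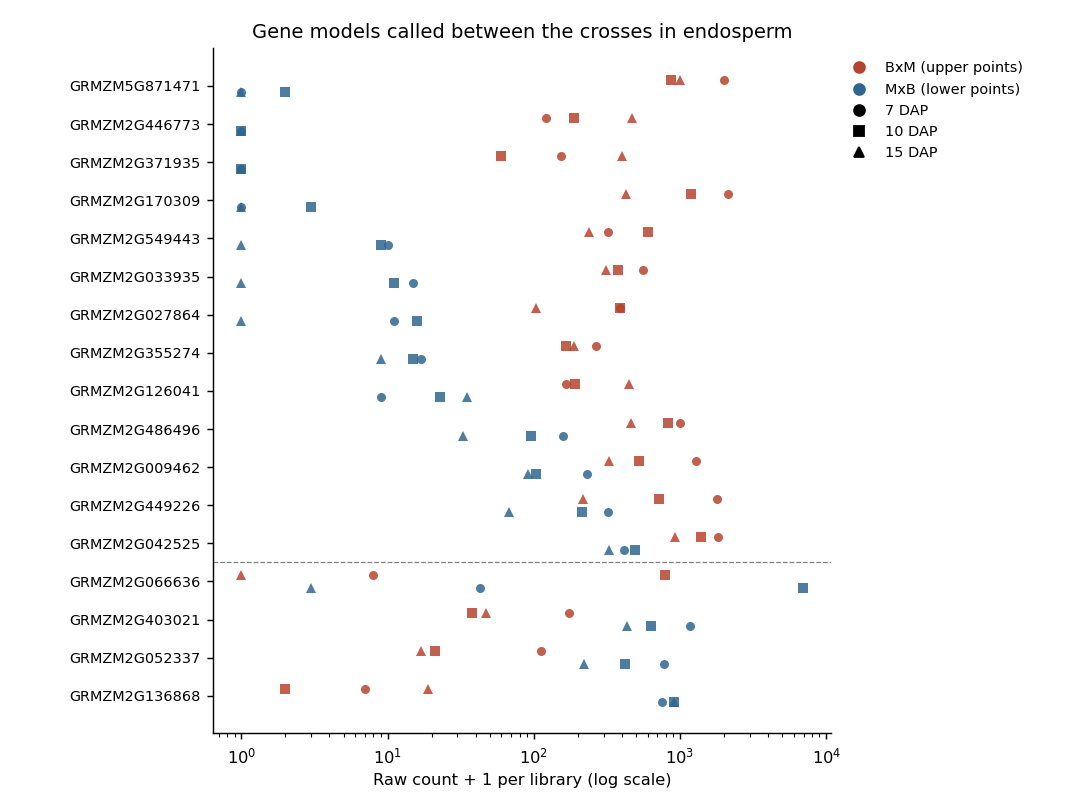
Raw count plus 1 per library (horizontal log axis) for the 17 called models with a mean count of at least 100, BxM endosperm as upper points and MxB endosperm as lower points of each line, with ages by symbol. The dashed line separates 13 models higher in BxM from 4 higher in MxB. In the top 4 lines each MxB library holds at most 2 counts.

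The gene lists, which beside endosperm genes hold defence, pigment, embryo and maternal tissue genes, gave 0 calls with edgeR among 121 tested members. Of these members, 19 had an unadjusted p under 0.05, beside 4211 of the 38893 models (10.8%). DESeq2 called 6 of the 121, beside 1079 of the 38893 (2.77%). The 6 are dzs18, fl3, mez1, his2b5, bx1 and lox12. Most members took different sides at different ages, as the plot of lists by age shows. Storage protein genes had a median log2 of -2.84 at 7 DAP, 1.14 at 10 DAP and 0.49 at 15 DAP, beside medians of all models of -0.04, 0.02 and -0.04. Of 22 tested members, BxM was the higher in 1 at 7 DAP, 19 at 10 DAP and 15 at 15 DAP. At 7 DAP z1B_7, z1C1_11, z1C1_12 and z1C1_13 had 0 counts in both crosses and so lay on neither side. In z1A1_8 and z1B_8 that age had 0 counts in BxM against 4 and 9 in MxB, so no size is read from them. The sum over the list was 219, 5367 and 225220 CPM in BxM, against 956, 2780 and 151440 CPM in MxB. Alpha-zein copies are near-identical, so single copies are uncertain.

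A single storage protein gene kept one side. The delta-zein gene dzs18 had 6.25, 644 and 1837 CPM in BxM endosperm, against 3.95, 97.3 and 521 CPM in MxB endosperm (log2 1.75, SE 0.38, edgeR adjusted p = 0.168). The beta-zein gene bz15 had 8.19, 1420 and 19789 CPM in BxM, against 12.98, 517 and 7822 CPM in MxB (0.74, SE 0.44, adjusted p = 0.606). For bz15 BxM was the lower cross at 7 DAP and the higher one later.

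Starch synthesis genes had medians of -0.40, 0.46 and -0.03 by age. BxM was the higher in 2 of 13 members at 7 DAP, in 10 at 10 DAP and in 6 at 15 DAP. The sh2 gene, for the large subunit of ADP-glucose pyrophosphorylase, had 8.28, 1631 and 9480 CPM in BxM, against 169, 1610 and 10682 CPM in MxB (log2 -1.27, SE 0.84, adjusted p = 0.643). The granule-bound starch synthase gene wx1 had 0.613, 315 and 13060 CPM in BxM, against 6.16, 158 and 8090 CPM in MxB (-0.28, SE 0.80, adjusted p = 0.933). For sh2 the crosses were far apart at 7 DAP and near each other at the later ages, while wx1 had a log2 of -3.31, 0.997 and 0.69 by age. The members with one side at all ages were agpsl1 and sbe3, both on the MxB side.

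Of the 8 zein and endosperm regulators, ohp1 and fl3 were on the BxM side at all ages and ohp2 on the MxB side. The fl3 gene, a PLATZ protein that acts in RNA polymerase III transcription, had 6498, 3512 and 10201 CPM in BxM, against 4123, 1548 and 6685 CPM in MxB (log2 0.82, SE 0.27, adjusted p = 0.341). The bZIP gene ohp1 had 16.1, 23.0 and 19.3 CPM in BxM, against 10.8, 11.3 and 17.8 CPM in MxB (0.57, SE 0.24, adjusted p = 0.448), and kernels at 0 DAP had 2202 counts in BxM and 364 in MxB. The zein activator o2 had a log2 of -1.61, 1.39 and 0.67 at the 3 ages. The list median was -0.44 at 7 DAP, 0.64 at 10 DAP and 0.05 at 15 DAP, and BxM was the higher in 2, 7 and 4 of the 8.

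Among imprinted and Polycomb genes, mez1 had the most even difference. It encodes an Enhancer of zeste histone methyltransferase and is known in maize as a gene expressed from the maternal copies in endosperm. It had 70.5, 40.2 and 63.5 CPM in BxM, against 41.5, 24.8 and 32.9 CPM in MxB, with log2 values of 0.76, 0.70 and 0.95 (fit 0.80, SE 0.18, adjusted p = 0.178). BxM was the higher at each age, with a log2 under 1 each time, while the ranges over the ages overlap. The copy number bound supposes that each copy keeps the level of its line, so it is not applied to mez1. In kernels at 0 DAP mez1 had 2695 counts in BxM and 3040 in MxB.

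The other maternally expressed genes differed less evenly. The Polycomb gene fie1 had 190, 175 and 48.3 CPM in BxM, against 171, 114 and 39.2 CPM in MxB (log2 0.36, SE 0.19, adjusted p = 0.55). NRP1 was lower in BxM at 7 DAP, with 34.0 CPM against 109 CPM in MxB, and higher at 10 DAP, with 778 CPM against 372, and at 15 DAP, with 1528 CPM against 815. MEG1, a transfer layer gene, had 35090, 3199 and 0 counts in BxM, against 12501, 5647 and 5 in MxB. Over the 8 members the median log2 was 0.22, -0.02 and -0.10 by age, and 2 kept the BxM side at all ages.

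Markers of the basal transfer layer and of the embryo-surrounding region were higher in BxM at 7 DAP and higher in MxB at 10 DAP. All 5 transfer layer members were on the BxM side at 7 DAP (median log2 1.54) and all 5 on the MxB side at 10 DAP (-0.45). The bap2 gene had 5197 and 644 CPM in BxM at 7 and 10 DAP, against 1792 and 857 CPM in MxB, and mn1, the cell wall invertase gene of this layer, had 90793 and 45519 counts in BxM against 16345 and 78758 in MxB. All 3 embryo-surrounding genes followed the same order of sides, with medians of 1.18 at 7 DAP and -0.999 at 10 DAP. At 15 DAP these 8 genes had 0 to 12 counts in BxM and 3 to 113 in MxB, so the log2 values of that age are not read as sizes. The aleurone markers were lower in BxM at 7 DAP in 3 of 3 and higher at 10 DAP in 3 of 3 (medians -0.69 and 0.61).

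Cell cycle and histone genes had a median log2 of -0.17, 0.02 and -0.72 by age. Of 13 members, 2 were on the BxM side at all ages and 6 on the MxB side, and 7 were higher in BxM at 10 DAP. Among models with a mean count of at least 100 the shares were 16.3% and 19.7%, while cycD4, on the BxM side, had a mean of 77.8. The 6 include the replication clamp genes pcna1 and pcna2 and the cyclin genes cyc1 and cyc3. Some of these sides rest on little. At 15 DAP cyc1 had 2 counts in BxM against 6 in MxB, cyc3 2 against 14 and cycD1 0 against 2. The log2 of cyc1 was -0.05 at 7 DAP and that of cyc3 -0.09 at 10 DAP. pcna2 had 13900, 7972 and 137 counts in BxM, against 16111, 12605 and 630 in MxB (log2 -0.73, SE 0.31, adjusted p = 0.452). The histone gene his2b5 was on the BxM side at all ages, with 151, 379 and 16.4 CPM in BxM, against 101, 119 and 7.26 CPM in MxB (1.14, SE 0.24, adjusted p = 0.166). In kernels at 0 DAP his2b5 had 12078 counts in BxM and 12 in MxB, and at 5 DAP 8246 in BxM and 836 in MxB, beside endosperm log2 values of 0.58, 1.67 and 1.18 by age. Core histone copies can share reads, and their single values are uncertain.

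Defence genes had 2 of 24 tested members on the BxM side at all ages and 7 on the MxB side. Among models with a mean count of at least 100 the shares were 16.3% and 19.7%, and 15 of the 24 reached that mean. Some sides rest on few counts. On the MxB side, bx1 had 0, 0 and 2 counts in BxM, against 58, 108 and 6 in MxB. The counts of bx2 were 2, 0 and 0 in BxM, against 30, 21 and 2 in MxB. BX4, of the benzoxazinoid pathway, had 43, 184 and 6 counts in BxM, against 85, 2508 and 13 in MxB (log2 -1.96, SE 0.58, adjusted p = 0.291). The lipoxygenase gene lox3 had 322, 952 and 22 counts in BxM, against 369, 5681 and 60 in MxB (-1.17, SE 0.39, adjusted p = 0.337). Both were farthest apart at 10 DAP, where ZAG3, a MADS-box marker of maternal ovule tissue, had 10.1 CPM in BxM and 53.1 CPM in MxB, and zag2 had 40.9 CPM in BxM and 74.8 CPM in MxB. The other ovule markers were slightly higher in BxM at that age, ZAG1 with 10.4 CPM against 9.92 CPM in MxB and ZMM2 with 54.6 CPM against 51.7 CPM in MxB. Over the 4 ovule markers the sum was 8.62, 116 and 1.52 CPM in BxM by age, against 7.68, 190 and 1.90 CPM in MxB, and the part of maternal tissue in these differences was not tested.

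The other lists held few abundant members. Of the anthocyanin and phlobaphene genes 7 of 11 were tested and 3 reached a mean count of 100, with bz1 at 352, 235 and 18 counts in BxM, against 387, 197 and 17 in MxB. The auxin synthesis gene TAR3 was lower in BxM at 7 DAP, with 203 counts against 547 in MxB, and higher at 10 DAP, with 7672 against 3381. Embryo markers summed to 40.9, 354 and 51.6 CPM in BxM, against 72.0, 181 and 52.2 CPM in MxB, with lec1 at 0 in both libraries at 15 DAP. Green pericarp markers summed to at most 6.59 CPM in any library, and cab48 was at 0 in each.

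**Figure D5:**
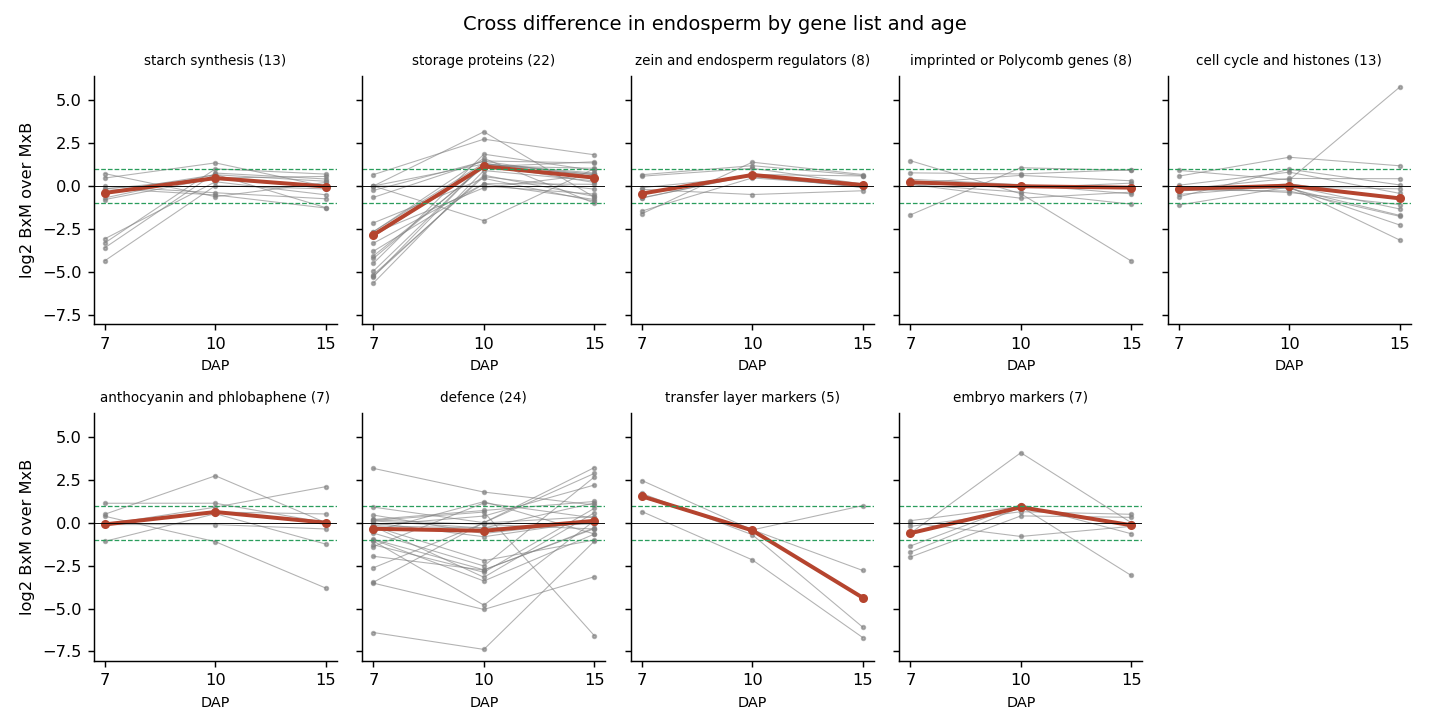
Log2 of BxM over MxB in endosperm (vertical axis) at 7, 10 and 15 DAP (horizontal axis) for the lists with at least 5 tested members, whose number is in brackets. Thin lines are genes, thick lines are medians and dashed lines mark 1 and -1. The transfer layer values at 15 DAP rest on 0 to 113 counts per gene and library and are not read as sizes. The storage protein median is -2.84 at 7 DAP and 1.14 at 10 DAP, while the imprinted and Polycomb median stays between -0.10 and 0.22.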

How the data were processed

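RNA was sequenced from maize kernels and endosperm of reciprocal crosses. The authors deposited raw read counts per gene model for each library, and these counts were used as deposited. Per the submitters' processing notes Bowtie and bedtools were used. For versions, genome build and annotation, nothing was given in the sources used here. The labels speak of 3 replicate groups of material per sample, but 1 column was deposited for each. The members and gene lists were chosen with earlier results of these data known.

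Cross effects were fitted on 6 endosperm libraries with age as a term (edgeR 4.0.16, R 4.3.3, filterByExpr with the design, TMM factors, quasi-likelihood test, Benjamini-Hochberg threshold 0.05, 2 residual degrees of freedom). Differences beyond a log2 of 1 were tested with glmTreat. Levels are CPM (counts scaled to the library total) with TMM factors, and log2 values at single ages used a prior count of 0.5. Scripts were tested on simulated data. With 50 changed models per fold, the cross test recovered 10% of 2-fold and 52% of 4-fold changes and called 20 unchanged models. A low number of calls is therefore not read as few differences. Identical counts over the 6 libraries were found in 1224 of the models tested, so overlapping models share reads.

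Of 108342 model identifiers 18731 matched a synonym in a reference gene table (Zm-B73-REFERENCE-NAM-5.0), and 2602 had a usable symbol. Named models are called models with a mean count of at least 100 and 1 side at all ages, and list members. DESeq2 1.42.0, other scalings, other filters and leaving out each library were tried as alternatives.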

Additional observations from a re-analysis of the deposited data

Results flagged for a closer look

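Several gene groups had opposite cross differences at different ages, and these differences between ages were not tested, since each cross and age has 1 library. Storage protein genes had a median log2 of BxM over MxB of -2.84 at 7 DAP and 1.14 at 10 DAP. Aleurone markers had -0.69 and 0.61, and embryo markers had -0.61 and 0.90 at the same ages. Transfer layer markers had 1.54 at 7 DAP and -4.37 at 15 DAP, and embryo-surrounding region markers had 1.18 and -5.02, where the 15 DAP values rest on 0 to 113 counts per gene and library. For genes at 0 in BxM those values are set by the prior count of 0.5, so no size is read from them. At 15 DAP mn1, with 12 counts in BxM against 8 in MxB, and ESR3, with 8 against 3, were on the BxM side.

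The cross difference of 5 models differed most firmly between endosperm and kernels of 3 and 5 DAP by the tissue by cross term. Endosperm minus kernels, the log2 difference was 6.82 for GRMZM2G001905, -8.38 for GRMZM2G093942, 5.26 for GRMZM2G023520, 4.80 for GRMZM2G042133 and -8.45 for GRMZM2G413835.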

How the results depend on the processing

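The 17 named called models kept the sign of their log2 in each alternative run. They were chosen on these same libraries with 1 side at all ages, so a change of sign was hardly possible and nothing is read from this. The counts of models higher in BxM, higher in MxB and beyond the bound (15, 4 and 2) moved with most settings. They were 43, 25 and 24 with library totals only, 545, 375 and 205 with no filter on low counts, and 673, 406 and 120 with DESeq2. Each was 0 with no age term (878 models at an unadjusted p under 0.05) and 0 with the spread taken from all 12 libraries (3691). Median-ratio (RLE) factors, a mean count of at least 100 and, added after seeing the data, the filter by cross each gave 2 and 0 and left the count beyond the bound at 2. Keeping the set-aside models gave 4 and 1, and counting identical models once gave 23 higher in BxM. Leaving out single libraries gave 9 to 820 higher in BxM, 2 to 528 higher in MxB and 3 to 160 beyond the bound. With 1 library per cross and age, each such run takes a whole age out of the cross contrast. Why the counts differ between the ages left out was not tested. Upper-quartile factors and setting aside GRMZM2G518465 as well left all 3 counts within 1.5 times.

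The tissue by cross count of 795 was 1660 with no filter, 487 with a mean count of at least 100, 2670 with DESeq2 and 265 to 1508 when single libraries were left out. Among 8896 models with a mean count of 1000 or more, 1289 were on the BxM side and 1764 on the MxB side at all ages. The median of models counted in Mo17 kernels only was -0.88 with at least 20 counts in that line and at most 3 in the other, and the B73 median was 1.02. A count of 0 allows up to 3 counts, or 0.0347 to 0.130 CPM with TMM factors per endosperm library, for counting error only.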

Other observations

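One abundant model had a count in a single library of 15 DAP endosperm. GRMZM2G518465, named after its values were seen, had 237, 31052 and 903934 counts in BxM at 7, 10 and 15 DAP, against 1633, 19422 and 0 in MxB. The 15 DAP count was 2.55% of the BxM library. It was tested with the other models and did not pass (edgeR adjusted p = 0.915).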
